A study of Mus musculus with 16 samples.

Results

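Col1a1, Col1a2 and Sparc are 3 of the 47517 gene rows counted by RNA-seq in 16 libraries of mouse tibial bone, and they were taken as the rows that carry these gene names. The libraries came from 8 male mice aged 16 weeks, 4 labelled NT3-Cre+ (NT3 here) and 4 labelled Ctrl, with 1 library from each tibia. The 4 groups of 4 libraries were loaded NT3, non-loaded NT3, loaded Ctrl and non-loaded Ctrl. The loaded limb was the right tibia, compressed along its axis on 9 days with 1200 cycles a day, at a peak of 10.0 N in NT3 and 8.7 N in Ctrl, both meant to give -2000 microstrain. The non-loaded limb was the left tibia of the same mouse, so every non-loaded bone came from an animal whose other leg was loaded. Bones were collected 4 hours after the last bout, cleaned of muscle and spun free of marrow, and the mean RNA integrity number stated was 5.4. The series title names activation of NF-kB inducing kinase (NIK, the product of Map3k14) in the bone lineage. The NT3 allele, the promoter that drives Cre and the alleles that the Ctrl mice carry are not given in the sources used here.

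Type I collagen is the main organic component of bone matrix and is made chiefly by osteoblasts. Its molecule is a triple helix of α1 chains, encoded by Col1a1, and an α2 chain, encoded by Col1a2, and the chains are hydroxylated, folded and cross-linked by a dedicated set of enzymes and chaperones. Sparc encodes osteonectin, a secreted glycoprotein of bone that binds both collagen and calcium mineral. Mechanical loading of a limb is a standard way to induce new bone formation in mice.

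The fragment counts of these rows need a caution about strand. The libraries were shallow in assigned fragments, with 758394 to 1064391 counted per library, and rows of usually abundant transcripts were low, with 11 to 33 fragments for Actb and 23 to 51 for Gapdh. Of 1242 rows that averaged at least 100 fragments and were placed on GRCm38, 1093 (88.0%) shared at least 20 exon bases with a gene of the opposite strand, against 6812 of 44617 rows (15.3%) with lower averages. A count under a row's name may therefore be of the strand opposite to the gene, for Col1a1, Col1a2 and Sparc too. Map3k14 held 1 to 9 fragments per library, too few to check the genotype labels. Rows opposite skeletal muscle genes summed to between 823 and 12200 fragments per 1e+06 and overlapped among the 4 groups. Of these, 6 could be tested, and 0 were called in any comparison. Their median log2 fold change with loading was -0.66 in NT3 and 0.23 in Ctrl, with a median difference of -0.93. For NT3 over Ctrl it was -0.89 in loaded and 0.32 in non-loaded tibiae. The part of muscle rows in the members' changes was not tested. Bone matrix rows under their own names varied, with averages of 119 fragments for Ibsp and 86.8 for Dmp1 but 12.2 for Spp1. Of 21 such genes in a list used below, 12 had a named row that could be tested for loading. The row named Phospho1 averaged 71.4 fragments, against 1800 for Abi3, a row opposite it. Of the 9 chondrocyte rows, Col9a1 and Matn1 were at 0 in every library. Together the 9 rows summed to 157 to 235 fragments per 1e+06, with overlap among the groups.

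No annotated gene lay opposite the exons of any of the 3 members in GENCODE vM21. Col1a1 (ENSMUSG00000001506.10) lies at chr11:94936224-94953042 on the plus strand of GRCm38 with 52 merged exons. Its row averaged 174 fragments per library and ranked 738 of all rows, and 62 among the 37954 rows with no gene opposite. Col1a2 (ENSMUSG00000029661.16) lies at chr6:4504814-4541544 on the plus strand with 48 merged exons. Its row averaged 106 fragments and ranked 1202. The Gm43921 gene sits inside Col1a2 on the same strand but shares 0 exon bases with it. Sparc (ENSMUSG00000018593.13) lies at chr11:55394500-55423183 on the minus strand with 12 merged exons, averaged 43.4 fragments and ranked 2575.

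The 250 bases before the annotated start are shown for the members with a RefSeq promoter entry, 2 of 3. They are shown because the member rows all rose with loading in Ctrl and these stretches lead up to the annotated transcription starts. The part of these stretches in that rise was not tested. The sequences are from RefSeq on GRCm38.p6, at chr6:4505368-4505617 on the plus strand for Col1a2 and at chr11:55420081-55420330 on the minus strand for Sparc. Both windows lie inside the gene bounds given above, which take in longer transcripts. In GENCODE vM21, 1 of 8 Col1a2 transcripts and 2 of 9 Sparc transcripts start inside the window shown. Each sequence runs 5′ to 3′ toward the start. Capitals mark matches to the CCAAT box (CCAAT), the GC box (GGGCGG), the TATA box (TATAAA) and the Runt motif (TGTGGT), which were searched on both strands and did not overlap one another.
Col1a2: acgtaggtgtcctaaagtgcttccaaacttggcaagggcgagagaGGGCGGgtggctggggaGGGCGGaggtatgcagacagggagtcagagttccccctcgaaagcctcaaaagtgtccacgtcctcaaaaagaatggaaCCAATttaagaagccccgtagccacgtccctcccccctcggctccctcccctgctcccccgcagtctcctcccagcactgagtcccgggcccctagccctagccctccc
Sparc: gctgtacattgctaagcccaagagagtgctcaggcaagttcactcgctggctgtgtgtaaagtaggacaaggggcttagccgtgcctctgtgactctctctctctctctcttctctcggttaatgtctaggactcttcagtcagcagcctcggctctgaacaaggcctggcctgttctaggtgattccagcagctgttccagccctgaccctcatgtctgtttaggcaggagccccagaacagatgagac

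The Col1a2 stretch held a CCAAT box that begins 109 bases before the start and GC boxes that begin 205 and 188 bases before it. The Sparc stretch held none of the 4 motifs, which says only that these letters are not in this window. Among 32851 mouse promoter entries of the same length, 33.8% held CCAAT, 32.7% held GGGCGG, 12.4% held TATAAA and 14.0% held TGTGGT. The G and C content was 62.0% for Col1a2 and 54.0% for Sparc, against a median of 52.4% over all entries.

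Col1a1 rose with loading in both genotypes. Levels are counts per 1e+06 fragments scaled by TMM (CPM), listed for mice 1 to 4. In NT3 mice the Col1a1 row measured 205, 347, 215 and 241 CPM in loaded tibiae, against 106, 167, 74.8 and 98.2 CPM in the non-loaded tibiae of the same animals. In Ctrl mice it measured 338, 284, 334 and 486 CPM in loaded tibiae, against 77.6, 39.7, 65.8 and 198 CPM in non-loaded tibiae. In each genotype every loaded tibia lay above every non-loaded one, and the highest non-loaded Ctrl value, in mouse 4, stood apart from the other 3. Within single mice the loaded limb was 1.94, 2.07, 2.87 and 2.46 times the non-loaded limb in NT3, and 4.35, 7.14, 5.07 and 2.45 times in Ctrl.

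**Figure D1:**
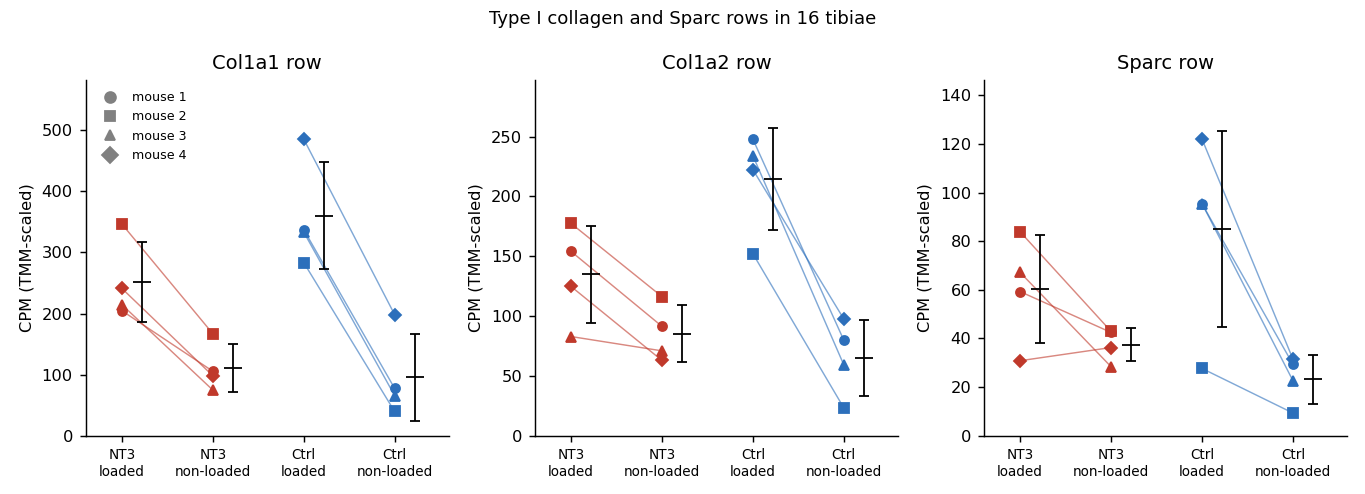
TMM-scaled CPM of the Col1a1, Col1a2 and Sparc rows in each of 16 tibiae; marker shapes are mice 1 to 4 of each genotype, lines join the limbs of a mouse, and black bars are mean ± SD (n = 4). The loaded limb was the higher one in 4 of 4 Ctrl mice for all 3 rows, and in NT3 in 4 of 4 mice for Col1a1 and Col1a2 and 3 of 4 for Sparc.

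Over the group, Col1a1 averaged 252 ± 65.1 CPM in loaded NT3 and 111 ± 39.4 CPM in non-loaded NT3 (SD, n = 4 each). The log2 fold change with loading in NT3 was 1.19 (SE 0.17, adjusted p = 1.48e-05, edgeR's quasi-likelihood test with mouse as a block), a 2.28-fold difference with a 95% interval of 1.81 to 2.88. In Ctrl the averages were 360.1 ± 87.3 CPM in loaded and 95.4 ± 70.5 CPM in non-loaded tibiae. The log2 fold change in Ctrl was 2.06 (SE 0.17, adjusted p = 6.31e-12 by edgeR), or 4.18-fold with an interval of 3.31 to 5.29. By p-value Col1a1 ranked 6 of 7192 rows tested in NT3 and 8 in Ctrl.

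Col1a2 rose with loading in Ctrl, and in NT3 its change did not pass the test. In NT3 mice its row measured 154, 178, 82.9 and 125 CPM in loaded tibiae, against 91.5, 116, 71.0 and 63.0 CPM in non-loaded tibiae. In Ctrl mice it measured 248, 152, 234 and 223 CPM in loaded tibiae, against 80.0, 23.4, 59.3 and 97.7 CPM in non-loaded tibiae. The limbs did not overlap in Ctrl. In NT3, 3 of 4 loaded tibiae lay above every non-loaded one, and the loaded tibia of mouse 3 lay within the non-loaded range, although in each of the 4 mice the loaded limb was the higher. The log2 fold change in NT3 was 0.65 (SE 0.18, adjusted p = 0.105 by edgeR), or 1.57-fold with an interval of 1.22 to 2.02. In Ctrl it was 1.79 (SE 0.18, adjusted p = 4.62e-10 by edgeR), or 3.45-fold with an interval of 2.68 to 4.43.

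Sparc rose with loading in Ctrl, and its change in NT3 did not pass the test. In NT3 mice the Sparc row measured 59.3, 83.8, 67.1 and 30.9 CPM in loaded tibiae, against 42.5, 42.9, 28.4 and 36.3 CPM in non-loaded tibiae. In Ctrl mice it measured 95.4, 27.7, 95.5 and 122 CPM in loaded tibiae, against 29.4, 9.34, 22.7 and 31.5 CPM in non-loaded tibiae. In each genotype 3 of 4 loaded tibiae lay above every non-loaded one. Ctrl mouse 2 was low in both limbs, its loaded tibia within the non-loaded range, and NT3 mouse 4 was the only mouse whose loaded limb was the lower. The non-loaded tibia of Ctrl mouse 2 rested on 8 fragments, for which counting error alone gives an exact Poisson 95% interval of 3.45 to 15.8.

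The log2 fold change of Sparc in NT3 was 0.64 (SE 0.24, adjusted p = 0.406 by edgeR), or 1.56-fold with an interval of 1.12 to 2.17. In Ctrl it was 1.85 (SE 0.25, adjusted p = 6.39e-07 by edgeR), or 3.61-fold with an interval of 2.56 to 5.09. Within mice the loaded limb was 1.4, 1.95, 2.37 and 0.85 times the non-loaded limb in NT3, and 3.24, 2.96, 4.22 and 3.87 times in Ctrl. In Ctrl the per-mouse ratios of Sparc spanned 2.96 to 4.22, a narrower range than the 2.45 to 7.14 of Col1a1. These Sparc ratios rest on 8 to 31 fragments in non-loaded Ctrl tibiae, and the difference in range was not tested.

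All 3 members were tested in every comparison. With loading, 1 of 3 passed in NT3, where 0.417% of 7192 rows passed in either direction, and 3 of 3 passed in Ctrl, where 4.07% did. Non-overlap upward with loading was seen for 1 of 3 members in NT3, against 1.90% of rows, and for 2 of 3 in Ctrl, against 4.91%. These backgrounds depend on single mice: the number of rows called in Ctrl was 293, but 163 without mouse 2 and 188 without mouse 3, and in NT3 it was 30, but 17 without mouse 1. The members' own calls stood in each of these fits.

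The estimated change with loading was smaller in NT3 than in Ctrl for each of the 3 rows, and this difference passed the test for Col1a2 only. On the log2 scale the NT3 change minus the Ctrl change was -1.13 for Col1a2 (SE 0.25, 95% interval -1.65 to -0.62, adjusted p = 0.0459 by edgeR's interaction term). For Col1a1 the difference was -0.87 (SE 0.24, interval -1.35 to -0.40, adjusted p = 0.167 by edgeR). For Sparc it was -1.21 (SE 0.34, interval -1.91 to -0.52, adjusted p = 0.221 by edgeR). Only 10 rows, 0.139% of those tested, were called for this difference, and all 10 were lower in NT3. In every one of the 4 Ctrl mice the per-mouse change of Col1a2 (3.10, 6.52, 3.95 and 2.28 times) exceeded those of all 4 NT3 mice (1.68, 1.53, 1.17 and 1.98 times). This describes the same libraries that gave the call and adds no separate evidence. The share of all rows that separate in this way was not counted. Peak force was 10.0 N in all NT3 mice and 8.7 N in all Ctrl mice. Genotype and force thus cannot be told apart in this difference.

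The call for Col1a2 rested on a narrow margin. It was lost without Ctrl mouse 1 (-1.20, adjusted p = 0.0537 by edgeR), mouse 2 (-0.93, adjusted p = 0.323) or mouse 3 (-1.07, adjusted p = 0.245). It was also lost without NT3 mouse 1 (-1.17, adjusted p = 0.0836 by edgeR), mouse 2 (-1.11, adjusted p = 0.19) or mouse 3 (-1.02, adjusted p = 0.226). Without Ctrl mouse 4, the animal with the highest non-loaded Col1a1 value, the Col1a1 difference was -1.23 and was called (adjusted p = 0.00109 by edgeR).

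**Figure D2:**
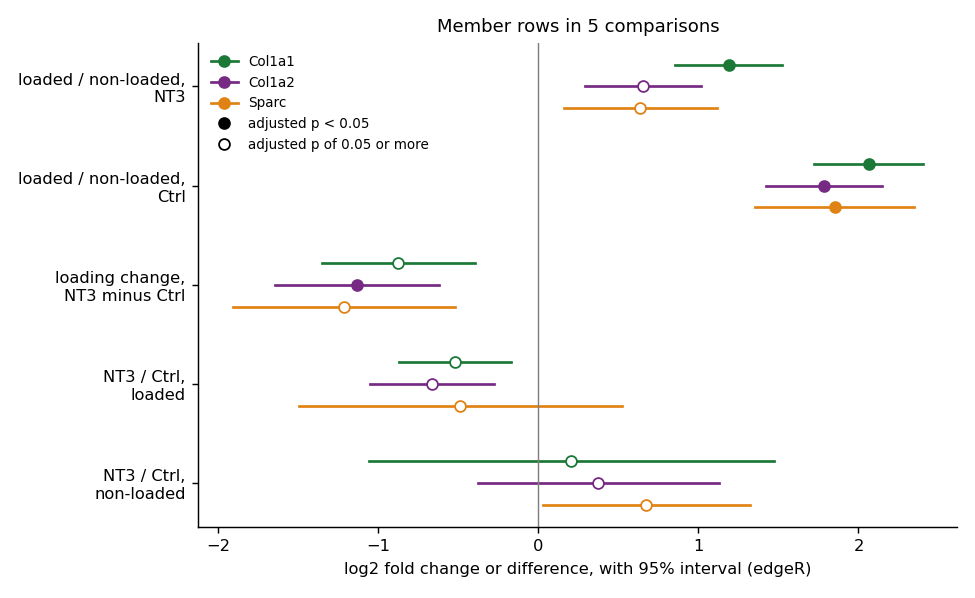
Log2 fold changes, or differences of log2 fold changes, with 95% intervals from edgeR for the 3 member rows in 5 comparisons; filled points had adjusted p under 0.05. Filled points are all 3 rows for loading in Ctrl, Col1a1 for loading in NT3, and Col1a2 for the difference between genotypes.

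Rows that lie opposite marrow genes moved with these groups. The mean log2 CPM of 9 tested rows opposite marrow granulocyte, erythroid and B lymphoid markers was 7.87 to 8.21 in loaded NT3, 7.98 to 8.28 in non-loaded NT3, 7.27 to 7.52 in loaded Ctrl and 7.81 to 8.13 in non-loaded Ctrl. The loaded Ctrl tibiae lay below all others. Summed, the 5 rows opposite B lymphoid genes held 432 to 667 fragments per 1e+06 in loaded NT3, 428 to 717 in non-loaded NT3, 150 to 209 in loaded Ctrl and 192 to 422 in non-loaded Ctrl. The 3 rows opposite granulocyte genes held 3610 to 4750 in loaded NT3, 4780 to 6830 in non-loaded NT3, 2300 to 4480 in loaded Ctrl and 3690 to 7820 in non-loaded Ctrl. The 3 rows opposite erythroid genes, with Mir3620 at 0 throughout, held 1070 to 2260, 1380 to 2970, 1640 to 2720 and 1990 to 3290 in the same order of groups. Of the 9 rows, 6 were called lower with loading in Ctrl, where 1.00% of all rows were. Of the 36 rows under the marrow markers' own names, none was at 0 in every library. The 14 granulocyte rows by name summed to 109 to 154 fragments per 1e+06 in loaded NT3, 116 to 142 in non-loaded NT3, 165 to 198 in loaded Ctrl and 91.9 to 175 in non-loaded Ctrl. The 10 erythroid rows by name summed to 103 to 157, 130 to 166, 141 to 173 and 81.7 to 153 in that order of groups, and the 12 B lymphoid rows to 341 to 426, 428 to 462, 322 to 416 and 296 to 350. Only 5 granulocyte, 2 erythroid and 3 B lymphoid rows by name could be tested for loading in Ctrl. Of these, 3 were called higher, where 3.07% of all rows were. They were Mmp8 (log2 1.42, adjusted p = 1.87e-06 by edgeR), Alas2 (0.54, adjusted p = 0.0424) and Cd72 (0.61, adjusted p = 0.000934). Cr2 was called lower (-0.75, adjusted p = 0.00829 by edgeR), where 1.00% of all rows were.

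The sum of rows opposite tendon and fibroblast genes moved with loading in Ctrl, while the NT3 limbs overlapped. These 3 rows summed to 224 to 257 fragments per 1e+06 in loaded NT3, 199 to 283 in non-loaded NT3, 240 to 288 in loaded Ctrl and 139 to 206 in non-loaded Ctrl, without overlap between the limbs of Ctrl mice. Among all single rows, 4.91% did not overlap upward with loading in Ctrl. With loading in Ctrl 1 of the 3 was called higher, where 3.07% of all rows were. It was Gm42802, opposite the mesenchymal receptor gene Pdgfra, at log2 1.08 (adjusted p = 0.000686 by edgeR). In loaded tibiae 1 of 2 tested rows was lower in NT3 than in Ctrl, where 1.33% of all rows were, again Gm42802 (-0.80, adjusted p = 0.0271 by edgeR). The 9 rows under the names of tendon and fibroblast genes summed to 39.5 to 52.6, 32.2 to 47.8, 26.4 to 49.8 and 26.3 to 50.1 in the same order of groups, and overlapped. Their part in the members' changes was not tested.

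With the marrow mean as a covariate, Col1a1 remained called for loading in NT3 (log2 1.12, adjusted p = 1.18e-05 by edgeR), where the marrow rows of the limbs overlapped. The same covariate ended all 3 calls for loading in Ctrl. There the log2 fold changes became 1.17 for Col1a1, 1.17 for Col1a2 and 2.50 for Sparc, with adjusted p = 0.372, 0.462 and 0.143 by edgeR. It also ended the Col1a2 call for the difference between genotypes (-0.56, adjusted p = 0.799 by edgeR), while the Col1a1 difference became -0.04 and the Sparc difference -1.81 (SE 0.76, adjusted p = 0.357). Since the limbs of Ctrl mice did not overlap in the marrow mean, loading and this measure cannot be told apart in Ctrl. In bulk bone, fewer cells of a type and less RNA per cell cannot be told apart either.

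**Figure D3:**
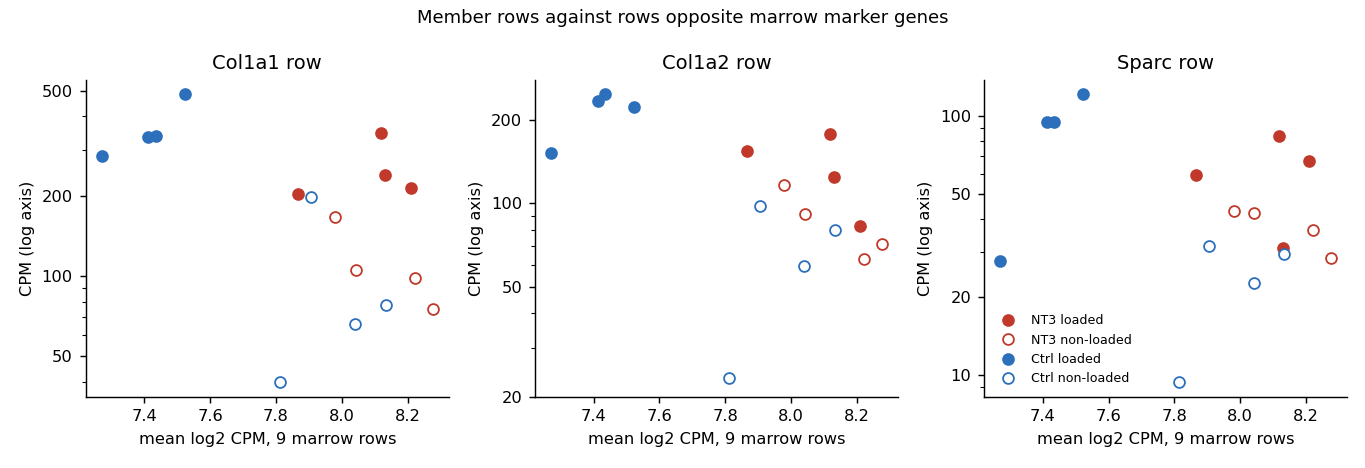
CPM of each member row (log axis) against the mean log2 CPM of 9 rows that lie opposite marrow marker genes, 1 point per tibia; filled points are loaded and open points non-loaded, red NT3 and blue Ctrl. The 4 loaded Ctrl tibiae sit left of the other 12, at 7.27 to 7.52, while the NT3 limbs share 1 range on the horizontal axis.

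Between genotypes, no member differed past the test in either limb. In loaded tibiae the log2 fold change of NT3 over Ctrl was -0.52 for Col1a1 (SE 0.17, interval -0.87 to -0.17, adjusted p = 0.113 by edgeR). It was -0.66 for Col1a2 (SE 0.19, interval -1.05 to -0.28, adjusted p = 0.0561 by edgeR) and -0.49 for Sparc (SE 0.44, interval -1.50 to 0.52, adjusted p = 0.748 by edgeR). Leaving out 1 mouse moved the Sparc value to -0.79 (without Ctrl mouse 2, adjusted p = 0.0978) or to -0.25 (without Ctrl mouse 4). In loaded limbs 3 of 4 NT3 values of Col1a1 and 2 of 4 of Col1a2 lay below every Ctrl value. For Sparc, 3 of 4 Ctrl values lay above every NT3 value, and that of Ctrl mouse 2 lay below them all. Called rows made up 2.65% of the 6080 tested, with 0 of 3 members among them.

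NT3 mouse 2 and Ctrl mouse 2 weighed on the loaded comparison. Without NT3 mouse 2, the highest of its group for all 3 rows, both collagen rows were called lower in loaded NT3, Col1a1 at -0.71 (adjusted p = 0.0101 by edgeR) and Col1a2 at -0.82 (adjusted p = 0.0146). Without Ctrl mouse 2, Col1a2 was called at -0.79 (adjusted p = 0.0111 by edgeR). In loaded tibiae the marrow mean was 7.27 to 7.52 in Ctrl and 7.87 to 8.21 in NT3, without overlap. Genotype and this measure thus cannot be told apart in these limbs, nor can genotype and peak force. With the marrow covariate 0 of 6080 rows were called. The members' values were then -1.53 for Col1a1 (SE 0.48), -0.51 for Col1a2 (SE 0.60) and -1.95 for Sparc (SE 1.22), each with an adjusted p of 0.999 by edgeR.

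In non-loaded tibiae the log2 fold change of NT3 over Ctrl was 0.21 for Col1a1 (SE 0.53, interval -1.06 to 1.47, adjusted p = 0.966 by edgeR), an interval that spans both directions. It was 0.38 for Col1a2 (SE 0.35, interval -0.38 to 1.13, adjusted p = 0.89 by edgeR). Sparc had the largest value of the 3 members, 0.67 (SE 0.32, interval 0.03 to 1.32, adjusted p = 0.607 by edgeR). Of the NT3 values of Sparc, 3 of 4 lay above every Ctrl value, and the group means were 37.5 ± 6.80 CPM in NT3 and 23.2 ± 10.0 CPM in Ctrl. The Col1a1 value turned to -0.05 without Ctrl mouse 2 and to -0.03 without NT3 mouse 2. The background here was 36 of 6220 rows called (0.579%), with 0 of 3 members among them. Leaving out 1 mouse moved that count to 77 (Ctrl mouse 1), 12 (Ctrl mouse 2), 20 (Ctrl mouse 3) or 14 (NT3 mouse 3).

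The order of the group means was thus alike for the 3 rows, with loaded Ctrl highest, then loaded NT3, then non-loaded NT3, and non-loaded Ctrl lowest. Neighbours in this order were separated without overlap only between loaded and non-loaded NT3 for Col1a1. Per kilobase of the deposited exon length, Col1a1 stood at 38.4 ± 9.91 CPM in loaded NT3 and 17.0 ± 6.002 in non-loaded NT3, and at 54.9 ± 13.3 in loaded Ctrl and 14.5 ± 10.7 in non-loaded Ctrl. Sparc stood at 17.9 ± 6.57 in loaded NT3 and 11.1 ± 2.02 in non-loaded NT3, and at 25.3 ± 11.97 in loaded Ctrl and 6.90 ± 2.97 in non-loaded Ctrl. Col1a2 was the lowest per kilobase in each group, at 10.9 ± 3.28 in loaded NT3 and 6.88 ± 1.92 in non-loaded NT3, and at 17.2 ± 3.43 in loaded Ctrl and 5.24 ± 2.57 in non-loaded Ctrl. The Sparc length in the files was 3367 bases, against 3788 in GENCODE vM21.

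The 2 collagen rows were set against each other as the ratio of raw Col1a1 to Col1a2 fragments within a library, which no library scaling touches. This ratio depends on row length, 6563 bases for Col1a1 and 12426 for Col1a2, and its counts may be of the opposite strand. It does not give the balance of the collagen chains. The ratio was higher in the loaded limb in 4 of 4 NT3 mice and 4 of 4 Ctrl mice. In NT3 mice 1 to 4 it was 1.33, 1.95, 2.59 and 1.93 in loaded tibiae, against 1.15, 1.44, 1.05 and 1.56 in non-loaded tibiae. In Ctrl mice it was 1.36, 1.86, 1.42 and 2.18 in loaded tibiae, against 0.971, 1.70, 1.11 and 2.03 in non-loaded tibiae. The widest gap was in NT3 mouse 3, and the groups overlapped in each genotype, with means of 1.95 ± 0.514 in loaded and 1.3 ± 0.236 in non-loaded NT3 and of 1.71 ± 0.388 in loaded and 1.45 ± 0.499 in non-loaded Ctrl. No test was made of this ratio, and some gaps were small. In the non-loaded tibia of Ctrl mouse 2 it rested on 34 Col1a1 and 20 Col1a2 fragments. For that Col1a2 count, counting error alone gives an exact Poisson 95% interval of 12.2 to 30.9. The ratio of Sparc to Col1a2 fragments averaged 0.478 ± 0.239 in loaded and 0.452 ± 0.0917 in non-loaded NT3, and 0.381 ± 0.151 in loaded and 0.368 ± 0.0329 in non-loaded Ctrl.

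**Figure D4:**
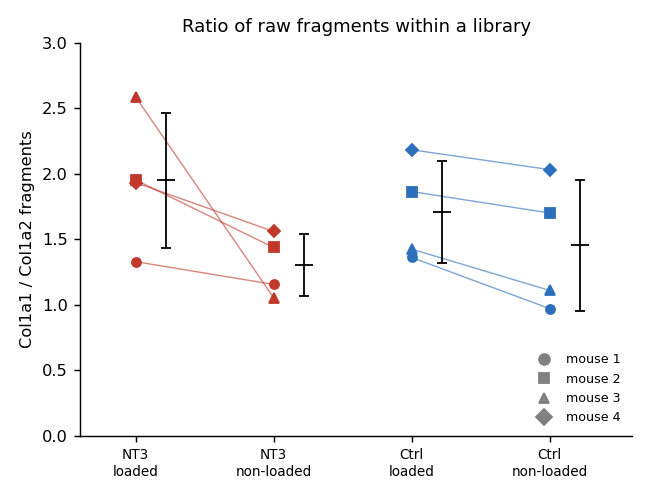
Ratio of raw Col1a1 to Col1a2 fragments in each tibia; shapes are mice 1 to 4 of each genotype, lines join limbs of a mouse and black bars are mean ± SD (n = 4). All 8 lines slope down toward the non-loaded limb, with the steepest in NT3 mouse 3, at 2.59 loaded and 1.05 non-loaded.

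The other fibrillar collagens, which copolymerise with or resemble type I collagen, were counted as a list of 9 genes, 7 of them with a row that could be tested. Here and for the lists that follow, rows opposite a listed gene were counted apart from rows of its name. With loading, 1 of 7 named rows rose in NT3 and 5 of 7 rose in Ctrl, where 0.334% of all rows rose in NT3 and 3.07% in Ctrl. The list medians were log2 0.72 in NT3 and 1.45 in Ctrl, against -0.004 and -0.027 over all rows. Col11a2, a chain of type XI collagen, rose in both genotypes, by log2 1.68 in NT3 (adjusted p = 5.77e-05 by edgeR) and 1.54 in Ctrl (adjusted p = 1.03e-05). Its partner chain Col11a1 measured 0.85 in NT3 (adjusted p = 0.494) and rose by 1.98 in Ctrl (adjusted p = 1.01e-05). Col5a2, of type V collagen, measured 1.18 in NT3 (adjusted p = 0.167) and rose by 1.90 in Ctrl (adjusted p = 6.62e-05), and Col3a1, of type III collagen, measured 0.72 in NT3 (adjusted p = 0.629) and rose by 1.45 in Ctrl (adjusted p = 0.0023). In loaded tibiae 1 of 7 named rows was lower in NT3 than in Ctrl, that of Col11a1, at -1.35 (adjusted p = 0.0034 by edgeR), where 1.33% of all rows were lower.

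Col5a1, which encodes a type V chain that regulates the assembly of collagen fibrils, could be read on both strands. The row of that name averaged 37.3 fragments, measured log2 0.34 with loading in NT3 (adjusted p = 0.863 by edgeR) and rose by 1.37 in Ctrl (adjusted p = 0.000373). The rows opposite it were Gm13372, with an average of 444 fragments, and 2810430I11Rik, with 284. Both rose in NT3, by 0.90 and 0.96 (adjusted p = 4.3e-05 and 2.15e-06 by edgeR), and in Ctrl, by 1.96 and 2.07 (adjusted p = 1.32e-14 and 2.15e-16). Both were also called for the difference, at -1.07 for Gm13372 and -1.10 for 2810430I11Rik (adjusted p = 0.00213 and 0.000607 by edgeR). These values share their direction with those of Col1a2.

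Enzymes and chaperones of type I procollagen made a list of 36 genes, with 12 named rows tested and 8 rows opposite a listed gene. Among named rows 0 of 12 rose in NT3, against 0.334% of all rows, and 1 of 12 rose in Ctrl, against 3.07%, namely P3h1, the prolyl 3-hydroxylase of collagen chains, by log2 2.74 (adjusted p = 0.00219 by edgeR) on an average of only 8.38 fragments. Among rows opposite these genes 1 of 8 rose in NT3, against 0.334% of all rows, and 5 of 8 in Ctrl, against 3.07%. The one called in both was Nt5c3b, opposite Fkbp10, a collagen chaperone of the endoplasmic reticulum, which rose by 0.71 in NT3 (adjusted p = 0.000226 by edgeR) and 1.63 in Ctrl (adjusted p = 2.64e-14). Rows opposite Plod2, a lysyl hydroxylase that sets the type of cross-link, and Sec23a, a coat protein of procollagen export, rose in Ctrl by 1.15 and 1.00 (adjusted p = 8.93e-10 and 1.87e-06 by edgeR). The row opposite Ppib, a cyclophilin of the prolyl 3-hydroxylation complex, rose by 0.55 in Ctrl (adjusted p = 0.000884 by edgeR). In loaded tibiae 3 of these 8 rows were lower in NT3 than in Ctrl, those opposite Fkbp10 at -0.79, Plod2 at -0.82 and Sec23a at -0.62 (adjusted p = 0.000974, 0.00111 and 0.0244 by edgeR), against 1.33% of all rows.

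Sparc's relatives and other matricellular proteins, which act in the matrix without forming fibres, were counted as a list of 15 genes. Of 4 named rows tested, 0 passed in NT3 and 0 in Ctrl (0.417% and 4.07% of all rows passed), with medians of log2 -0.21 and 0.58. Of 3 rows opposite such genes, 0 passed in NT3 and 1 rose in Ctrl (0.334% and 3.07% of all rows rose), the one opposite Tnc (tenascin C), by 0.44 (adjusted p = 0.0132 by edgeR). In loaded tibiae 1 of 3 named rows was lower in NT3 than in Ctrl, that of the growth factor-binding protein Ctgf, at -0.94 (adjusted p = 0.028 by edgeR), where 1.33% of all rows were lower. The row opposite Ctgf, Gm15270, averaged 622 fragments against 45.9 for the Ctgf row. It measured -0.45 in the same comparison and was not called (adjusted p = 0.109 by edgeR).

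Of other bone matrix and mineral proteins, 0 of 12 named rows rose in NT3, against 0.334% of all rows, and 3 of 12 rose in Ctrl, against 3.07%. These were Ibsp, which encodes bone sialoprotein, by log2 0.99 (adjusted p = 1.53e-05 by edgeR), Dmp1, an osteocyte matrix protein, by 0.72 (adjusted p = 0.00452), and Col12a1, a fibril-associated collagen, by 1.67 (adjusted p = 0.0121). In NT3 the Ibsp row measured -0.12 (adjusted p = 0.95 by edgeR), and it was called for the difference at -1.10 (adjusted p = 0.0115). The row Abi3 lies opposite Phospho1, a phosphatase that supplies phosphate to mineral, and also opposite Zfp652 and Gngt2. The row Prmt7 lies opposite Smpd3, a sphingomyelinase needed for normal bone mineralisation, and also opposite Gm26786. Abi3 rose by 1.39 in NT3 and 2.44 in Ctrl, and Prmt7 rose by 1.79 in NT3 and 2.67 in Ctrl, each with an adjusted p of at most 1.69e-12 by edgeR. The rows named Phospho1 and Smpd3 themselves measured 0.19 and 0.15 in NT3 and 0.13 and 0.20 in Ctrl, and none of these passed.

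Transcription factors and signals that act on collagen genes in osteoblasts gave 0 of 6 named rows called with loading in NT3, against 0.417% of all rows, and 0 of 6 in Ctrl, against 4.07%. Runx2, the master regulator of osteoblast differentiation, measured log2 -0.11 in NT3 and -0.27 in Ctrl. Gm37804, opposite Tgfb3, measured 0.13 in NT3 (adjusted p = 0.941 by edgeR) and rose by 1.02 in Ctrl (adjusted p = 3.96e-06), and in loaded tibiae it was lower in NT3 than in Ctrl (-1.16, adjusted p = 0.000358). In the same limbs the row of Tgfb2 was lower in NT3, at -1.32 (adjusted p = 0.0466 by edgeR). Gm29491, opposite Tgfb2, was lower as well, at -1.10 (adjusted p = 0.00191 by edgeR). Collagen receptors and turnover genes gave 0 of 6 named rows higher in NT3, against 0.334% of all rows, and 1 of 6 in Ctrl, against 3.07%, the scavenger receptor Stab1 (log2 0.82, adjusted p = 0.00109 by edgeR). The row opposite Stab1, Nt5dc2, was higher in NT3 than in Ctrl in loaded tibiae by 0.63 (adjusted p = 0.0244 by edgeR) and in non-loaded tibiae by 0.83 (adjusted p = 0.0152). The row named Stab1 was called in neither limb, at -0.17 in loaded tibiae (adjusted p = 0.768 by edgeR) and 0.40 in non-loaded tibiae (adjusted p = 0.644).

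**Figure D5:**
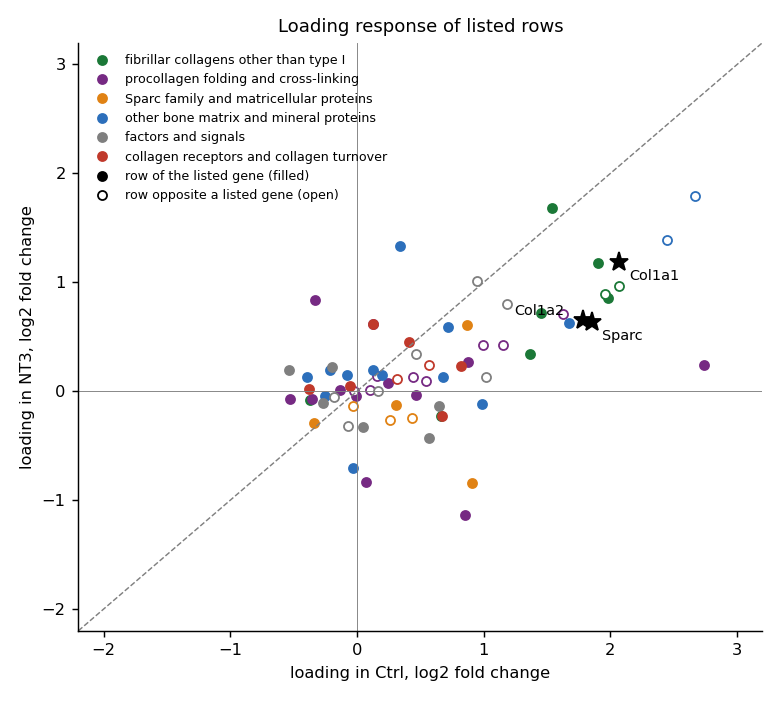
Log2 fold change with loading in NT3 (vertical axis) against that in Ctrl (horizontal axis) for rows of 6 gene lists (colours) and the 3 members (stars); filled points are rows of the listed gene, open points are rows opposite it, and the dashed line marks equal change. The stars lie below the line, near the fibrillar collagen rows and the rows opposite Col5a1; both axes come from 1 fit but from separate mice.

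The rows whose levels ran most like the members' were sought among 4113 others that averaged at least 20 fragments, by Pearson r of log2 CPM over 16 libraries, as a description with no test. For Col1a1 the 4 nearest were Abi3 (r = 0.937), Col1a2 (0.922), Gm13372 (0.921) and H2-Pb (0.915). For Col1a2 they were Chn1os1 (0.964), which lies opposite Chn1, 2810430I11Rik (0.933), Abi3 (0.925), Gm13372 (0.924) and Col1a1 (0.922). For Sparc they were Eme1 (0.911), opposite Lrrc59 and Mrpl27, Chn1os3 (0.899), Mtf1 (0.880), Gm26735 (0.875), opposite Sox4, and Chn1os1 (0.873). Each collagen row was thus among the 5 nearest of the other, while Sparc was the row ranked 25 for Col1a1 (0.832) and 16 for Col1a2 (0.859). These libraries share their 4 groups and their scaling.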

How the data were processed

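RNA-seq of ribosome-depleted total RNA, random-primed and read single-end for 75 bases, was deposited for 16 tibiae. Per the submitters' processing notes the authors used STAR 2.4.2a with mm10, featureCounts 1.4.6 of Subread and DESeq2. The deposited values are whole-number fragment counts per gene row, per the labels and the file headers. The annotation release and strand setting are not given in the sources used here, so counts were used by row name and may be of the opposite strand.

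Low rows were removed (filterByExpr, minimum count 10). TMM factors and robust edgeR 4.0.16 quasi-likelihood F tests were used in R 4.3.3 (limma 3.58.1, statmod 1.5.0). Loading and its difference between genotypes used 16 libraries with mouse as a block, and genotype comparisons used 8. P-values were adjusted by Benjamini-Hochberg over all rows tested, and rows were called at adjusted p < 0.05. Pairing came from the design text, which pairs the limbs of each mouse; the limbs' deviations from group means correlated within mice at 0.045 to 0.178, and for Ctrl mouse 4 another mouse gave a higher value (0.094). Nothing states whether cages or litters were shared.

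Rows were matched to GENCODE vM21, 45250 by symbol and 609 by an older symbol. Members and gene lists were chosen with earlier results of these data known. The rows named from each list were up to 4 called rows by smallest p in each direction; the rows of Col3a1, Phospho1, Smpd3 and Runx2, the marrow and tendon rows, and values in other comparisons, were added after their values were seen. For likeness the 5 highest r were named. One listed gene and the rows opposite it are not reported here. Alternatives were DESeq2 1.42.0, RLE or total count scaling, ribosomal and Gm10800 rows left out, no filter, each mouse left out, a marrow covariate, and no replicate block. Poisson intervals cover counting error only. Gm10800, a repeat-rich row, took 0.132% to 5.72% of a library.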

Additional observations from a re-analysis of the deposited data

Results flagged for a closer look

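The loading response of Col1a2 differed between the genotypes by the test of the difference itself. Peak force also differed, at 10.0 N in NT3 and 8.7 N in Ctrl, and cannot be told apart from genotype here. The log2 change with loading was 0.65 in NT3 and 1.79 in Ctrl, a difference of -1.13 (SE 0.25, adjusted p = 0.0459 by edgeR's interaction term), and the loaded limb was the higher in 4 of 4 NT3 mice and 4 of 4 Ctrl mice. This call was lost under 10 of 15 alternatives, among them DESeq2 (adjusted p = 0.0808), total count scaling (adjusted p = 0.0961 by edgeR), the marrow covariate (-0.56, adjusted p = 0.799) and 6 of 8 fits without 1 mouse. None of the 3 members was past the test for a single sample far from the rest of its group. The nearest was Col1a1 in non-loaded Ctrl, where the gap of mouse 4 to the others was 0.761 of the group's range, under the 0.829 needed with 4 samples.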

How the results depend on the processing

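Of 201 alternative values of the member results, 179 kept their direction and side of the threshold. For loading in Ctrl, the 3 members stayed called under all alternatives but the marrow covariate (1.17, 1.17 and 2.50 for Col1a1, Col1a2 and Sparc). The count of called rows, 293, was 169 with DESeq2, 171 with no replicate block, 40 with the covariate, and 163 to 270 with a mouse left out. For loading in NT3, Col1a1 lost its call with no replicate block (1.17, adjusted p = 0.659 by edgeR). The count of 30 was 19 with DESeq2, 19 with total count scaling, 5 with no replicate block and 17 to 22 with a mouse left out.

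For the difference, Col1a2 lost its call with DESeq2 (-1.17, adjusted p = 0.0808), total count scaling (-1.17, adjusted p = 0.0961 by edgeR), the covariate (-0.56, adjusted p = 0.799) and no replicate block (-1.05, adjusted p = 0.997). With a mouse left out, Col1a2 ran from -1.38 to -0.93 and Col1a1 from -1.23 to -0.68. The count of 10 was 17 with no filter, 19 with the covariate and 0 with no replicate block by edgeR, and 10 with DESeq2; 472 rows had an unadjusted p under 0.05 in the blocked fit.

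For NT3 against Ctrl in non-loaded tibiae, Col1a1 ran from -0.046 to 0.86 with a mouse left out, reversed without Ctrl mouse 2 (-0.046) or NT3 mouse 2 (-0.032), while Col1a2 ran from 0.10 to 0.65 and Sparc from 0.42 to 0.87. The count of 36 was 71 with no filter, 13 with the covariate and 12 to 77 with a mouse left out. In loaded tibiae Col1a2 was called with ribosomal and Gm10800 rows left out (-0.67, adjusted p = 0.0492 by edgeR) and with no filter (-0.68, adjusted p = 0.023). With a mouse left out it ran from -0.82 to -0.48, Col1a1 from -0.71 to -0.34 and Sparc from -0.79 to -0.25. The count of 161 was 177 with DESeq2 and 0 by edgeR with the covariate, which cannot be told apart from genotype in loaded tibiae. The cause of these shifts was not tested. DESeq2 gave no adjusted p for Sparc in NT3, and depth limits Sparc most, with 8 to 108 fragments per library.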
